A study of Mus musculus with 12 samples.

Results

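The genes described here make up the protein folding and quality control machinery of the endoplasmic reticulum (ER), measured by bulk RNA sequencing of mouse pancreatic islets. The 38 genes were found by name in both deposited gene tables, all 38 in each, among 23104 genes that the tables share. By role, 18 are chaperones, their cofactors and disulfide enzymes, 10 serve ER-associated degradation, 6 belong to the protein translocation channel or its associated complex, and 4 are regulators. Membership is by gene name and uses no measured value. The study asked how loss of Rnf20, a RING-type E3 ligase for histone H2B and, per the title of the series, a partner of the transcription factor Islet-1, bears on beta cells.

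The ER is where secreted proteins enter the secretory pathway. Nascent chains pass through the SEC61 channel, are held by the chaperone BiP and its J-domain cofactors, receive disulfide bonds from the protein disulfide isomerases and their oxidases, and are inspected by lectin chaperones that read their sugars. Chains that fail to fold are handed back to the cytosol and degraded by the proteasome, and sensors in the ER membrane, IRE1 and ATF6 among them, adjust the production of this machinery through transcription factors such as XBP1. Beta cells depend on it because they make proinsulin, a disulfide-bonded hormone precursor, in large amounts.

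The knockout mice carried Rnf20 F/F with Pdx1 Cre ER, a tamoxifen-inducible Cre under the promoter of Pdx1, which is active in beta cells. Controls are labelled Rnf20 Flox Control, with no Cre named, so that an effect of the Cre transgene and one of the genotype cannot be told apart. Mice of both groups received 5 gavages of tamoxifen, 150 ug per g, at 4 weeks of age. Islets were freed with collagenase-P and hand-picked. There were 4 groups of 3 libraries, female knockout, female control, male knockout and male control, and each sex was scaled and tested apart. Whether each library stands for its own animal is not in the labels, so that p-values measure the spread between libraries, which may be technical.

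The 12 libraries held 19759712 to 56086810 reads assigned to genes. Male control 2 was the shallowest, with 17701 genes with reads, against 22287 to 24269 in the other libraries. Rnf20, the targeted gene, stood at 1877, 2000 and 1927 in female knockouts 1 to 3, against 3589, 4032 and 4340 in female controls 1 to 3. In males Rnf20 stood at 1519, 1373 and 1436 in male knockouts 1 to 3, against 3812, 3409 and 4058 in male controls 1 to 3. It was lower in every knockout library than in any control library, in females (log2 fold change -1.04 ± 0.10 SE, limma adjusted p = 6.35e-04) and in males (log2 fold change -1.38 ± 0.12 SE, limma adjusted p = 7.91e-04). The fewest reads of any member in a library were 194, for Bhlha15 in male knockout 3. Levels below are normalized counts, which the authors obtained by dividing the reads of a gene by the size factor of the library, and can be compared between libraries of 1 sex but not between genes. Fold changes are knockout over control on log2(normalized count + 1) from limma, ± the standard error (SE), and a gene is said to have changed, risen or fallen at an adjusted p below 0.05 over all genes tested in that sex. Whether groups overlap is given as a description, since the share of all tested genes whose groups stay apart was not counted. In bulk tissue, fewer cells of a type and less RNA per cell cannot be told apart.

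Several members carry in their promoters the ER stress response element, a known target of the ATF6 and XBP1 pathway, made of CCAAT and CCACG with 9 bases between them and read on either strand. The stretches below, from RefSeq on GRCm38.p6, are shown because their genes went different ways in the knockout. They are printed on the strand of the gene with the 2 arms of the element in capitals and 10 bases on each side.
Hspa5, chr2:34772015-34772053, plus strand: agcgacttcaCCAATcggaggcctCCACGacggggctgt
Dnajc3, chr14:118937817-118937855, plus strand: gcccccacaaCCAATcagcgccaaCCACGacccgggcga
Pdia6, chr12:17266481-17266519, plus strand: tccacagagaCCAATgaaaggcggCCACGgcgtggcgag
Ero1b, chr13:12565672-12565710, plus strand: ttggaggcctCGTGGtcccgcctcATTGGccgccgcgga
Syvn1, chr19:6046522-6046560, plus strand: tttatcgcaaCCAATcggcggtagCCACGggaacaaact
Derl3, chr10:75893232-75893270, plus strand: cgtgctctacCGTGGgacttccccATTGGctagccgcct
Canx, chr11:50325790-50325828, minus strand: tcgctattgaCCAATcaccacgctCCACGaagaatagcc
Calr, chr8:84847065-84847103, minus strand: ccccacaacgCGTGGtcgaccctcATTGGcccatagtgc
Herpud1, chr8:94386367-94386397, plus strand: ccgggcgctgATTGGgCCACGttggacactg
In the Derl3, Ero1b and Calr stretches the element lies on the opposite strand, so its arms read as CGTGG and ATTGG. The Herpud1 stretch holds the shorter variant, ATTGG and CCACG with 1 base between them.

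A RefSeq window reaching 250 bases before to 50 bases after a gene's start was at hand for 32 of the 38 members. The element was found in 10 of these 32, Hspa5, Hsp90b1, Dnajc3, Creld2, Calr, Canx, Pdia6, Ero1b, Syvn1 and Derl3, against 37 of all 27025 genes with a window, or 0.137%. The shorter variant was found in Herpud1 and Dnajb11, against 12 of 27025 genes, or 0.0444%. The bare arms are common, with CCAAT in 23 and CCACG in 27 of the 32 members, and in 41.1% and 35.5% of all genes. The core of a further element bound by XBP1 and ATF6, TGACG followed directly by TGG, was in none of the 32 windows and in 0.714% of all genes. Of the 10 genes with the element, 6 fell and 1 rose in female knockouts, and 2 fell and 2 rose in male knockouts. Among the 22 genes whose window lacked it, 12 fell and 1 rose in females, and 10 fell and none rose in males. The shares over all tested genes were 10.7% that fell and 9.90% that rose in females, and 7.09% and 6.08% in males. Whether the element bears on these counts was not tested. Windows of Hyou1, Manf, Derl1, Sec61a1, Ssr2 and Atf6 were not analysed here.

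**Figure D1:**
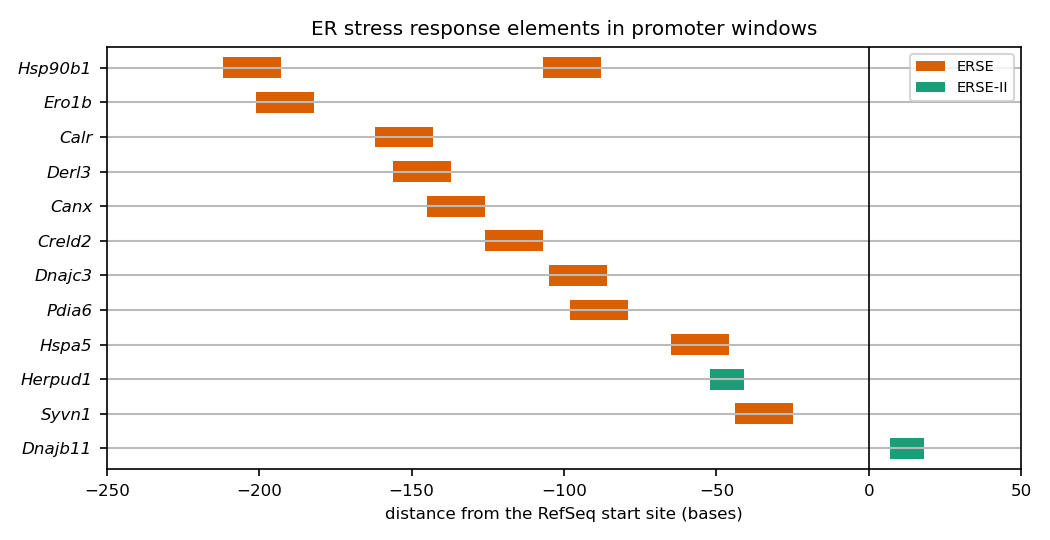
Positions of the ER stress response element and of its shorter variant in the promoters of the members that hold one, in bases from the RefSeq start. Of the 32 members with a window, 10 held the element, with 2 copies in Hsp90b1.

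In female knockouts, 23 of the 38 members fell and 2 rose, against 10.7% of all 18142 tested genes that fell and 9.90% that rose. With quantile scaling in place of size factors, 18 fell and 5 rose in females. With the mean log2 level of the acinar marker genes as a covariate, 10 fell and 1 rose in females, at a members' median of -0.49. The median log2 fold change of these acinar genes was -1.02 in females. In male knockouts, 16 of the 38 fell and 2 rose, against 7.09% of all 18010 tested genes that fell and 6.08% that rose. The median log2 fold change of the members was -0.51 in females and -0.51 in males, beside -0.01 and 0.06 over all tested genes. Translocon genes fell most often, 6 of 6 in females and 5 of 6 in males, with medians of -0.64 and -0.87. Of the 18 folding genes 10 fell in females and 5 in males, with medians of -0.61 and -0.37. Of the 10 degradation genes 5 fell and 1 rose in females, and 4 fell and 1 rose in males, with medians of -0.26 and -0.49. Of the 4 regulators 2 fell and 1 rose in females, and 2 fell in males. In the authors' deposited table of DESeq2 results, 25 members were lower and 2 higher in females, and 19 were lower and 2 higher in males, at the same threshold.

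The counts rested in part on single libraries. In females, 15 members fell without knockout 1, 19 without knockout 2, 15 without knockout 3, 19 without control 1, 13 without control 2 and 22 without control 3. In males, 7, 13 and 17 members fell without knockouts 1 to 3, and 18, 11 and 9 without controls 1 to 3. Over all tested genes in females, 3745 changed in either direction with every library in. That number was 2421, 1847 and 2507 without knockouts 1 to 3, and 3760, 2069 and 3672 without controls 1 to 3. In males 2372 tested genes changed with every library in. There the number was 814, 1954 and 1662 without knockouts 1 to 3, and 1765, 2298 and 1414 without controls 1 to 3. In these same fits, the number of folding genes that fell was 6 to 11 in females, lowest without control 2, and 1 to 7 in males, lowest without knockout 1. The number of degradation genes that fell was 1 to 5 in each sex, and was 1 without knockout 1 or control 2 in females and without knockout 1 in males. Translocon genes fell in 4 to 6 cases in females and in 3 to 6 in males, with 3 without knockout 1 or control 3.

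**Figure D2:**
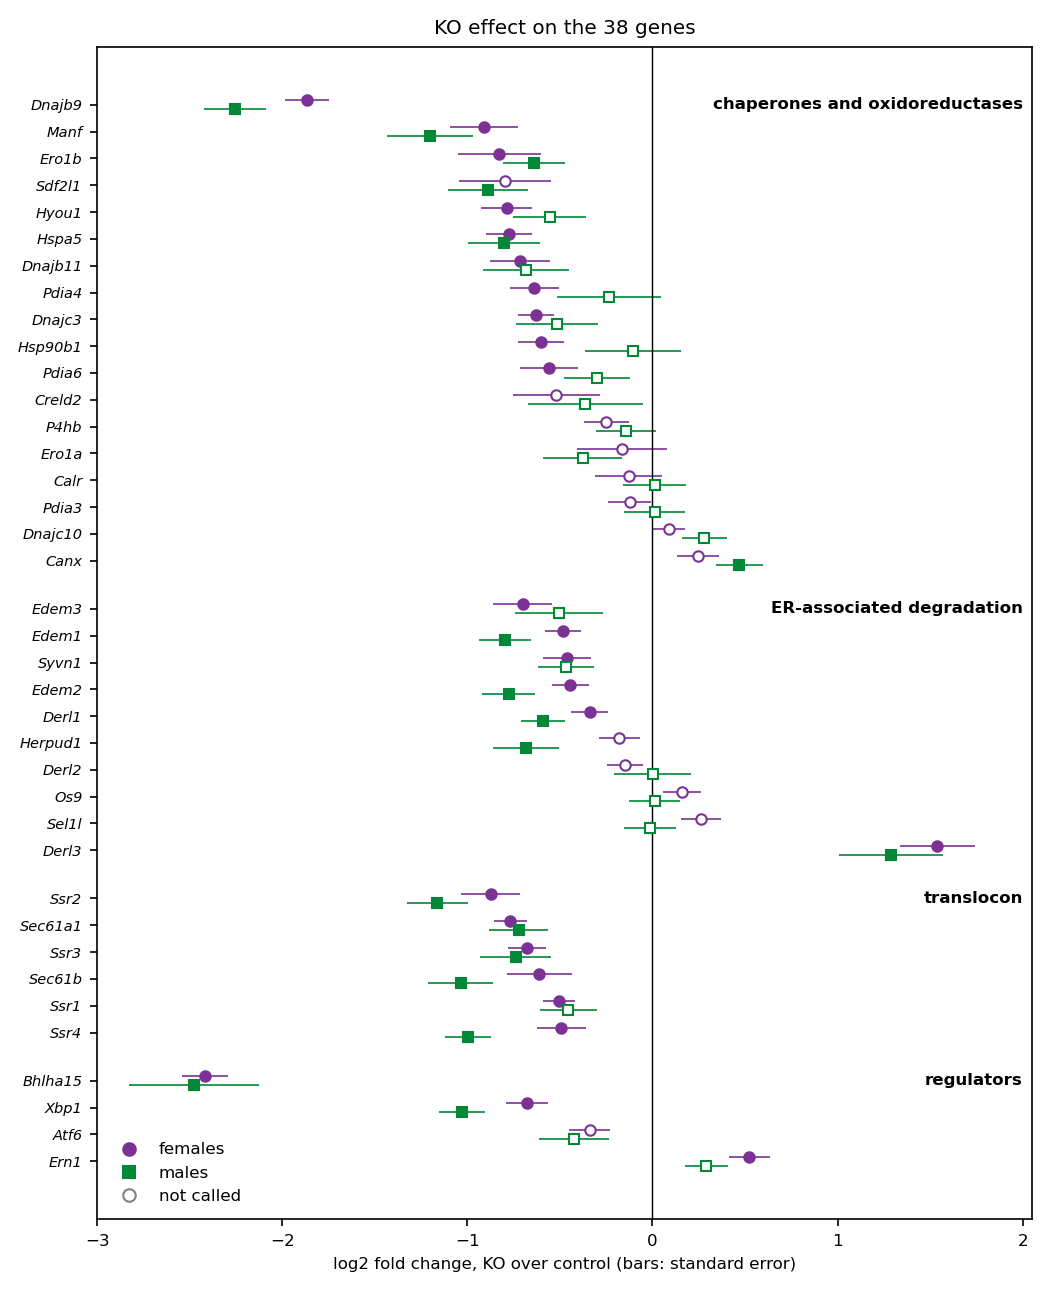
Log2 fold change of each of the 38 members, knockout over control, with its standard error, by role and for each sex, with filled points for genes past the adjusted p threshold. Members with a negative fold change numbered 32 in females and 30 in males, and Derl3 stood alone as a gene that rose in both.

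Bhlha15 fell the most of the 38 members. It lies at chr5:144127104-144131259 on GRCm39 and encodes MIST1, a helix-loop-helix factor of professional secretory cells that lies downstream of XBP1 in several of them. Its levels were 386, 391 and 418 in female knockouts 1 to 3, against 2191, 2419 and 1820 in female controls 1 to 3. In males they were 308, 391 and 170 in male knockouts 1 to 3, against 1000, 2058 and 1732 in male controls 1 to 3. No knockout library reached any control library, and the gene stood 5.34-fold lower in females (log2 fold change -2.42 ± 0.13 SE, limma adjusted p = 1.82e-04) and 5.57-fold lower in males (log2 fold change -2.48 ± 0.35 SE, limma adjusted p = 0.00359). By fold change, 56 of the 18142 genes tested in females and 126 of the 18010 tested in males had a lower fold change.

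Xbp1, at chr11:5470659-5475893 on GRCm39, encodes the transcription factor that IRE1 activates by splicing its mRNA, and counts per gene do not separate the spliced form. Its levels were 13188, 12859 and 11715 in female knockouts 1 to 3, against 22457, 20534 and 17666 in female controls 1 to 3. The male levels were 8234, 9962 and 8243 in male knockouts 1 to 3, against 17132, 18655 and 17964 in male controls 1 to 3. All knockout libraries lay below all control libraries in each sex, at 1.60-fold lower in females (log2 fold change -0.68 ± 0.11 SE, limma adjusted p = 0.00514) and 2.04-fold lower in males (log2 fold change -1.03 ± 0.12 SE, limma adjusted p = 0.00196). Both Bhlha15 and Xbp1 passed the test in every fit with 1 library left out.

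Ern1, which encodes the sensor IRE1 alpha itself, stood on the other side. Female levels of Ern1 were 10846, 11238 and 10126 in female knockouts 1 to 3, against 6413, 8061 and 8033 in female controls 1 to 3. Male levels of Ern1 were 12067, 12268 and 12523 in male knockouts 1 to 3, against 9026, 10789 and 10414 in male controls 1 to 3. Every knockout library was above every control library in both sexes, and the rise passed the test in females (log2 fold change 0.52 ± 0.11 SE, limma adjusted p = 0.0148) but not in males (log2 fold change 0.29 ± 0.12 SE, limma adjusted p = 0.138), although it did in males with quantile scaling, at 0.39 (limma adjusted p = 0.0466). Without female knockout 1 or 2 the adjusted p for Ern1 from limma was 0.0513 and 0.0668. Atf6 encodes the second sensor, a membrane-bound factor released by cleavage. Its levels were 4701, 4597 and 4581 in female knockouts 1 to 3, against 5023, 6390 and 6254 in female controls 1 to 3. In males its levels were 4024, 3938 and 5555 in male knockouts 1 to 3, against 4646, 6560 and 6971 in male controls 1 to 3, where knockout 3 lay above control 1. The female groups did not overlap, and neither sex passed the test, in females (log2 fold change -0.34 ± 0.11 SE, limma adjusted p = 0.0627) and in males (log2 fold change -0.42 ± 0.19 SE, limma adjusted p = 0.180), while without female control 1 the female adjusted p for Atf6 from limma was 0.0102.

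**Figure D3:**
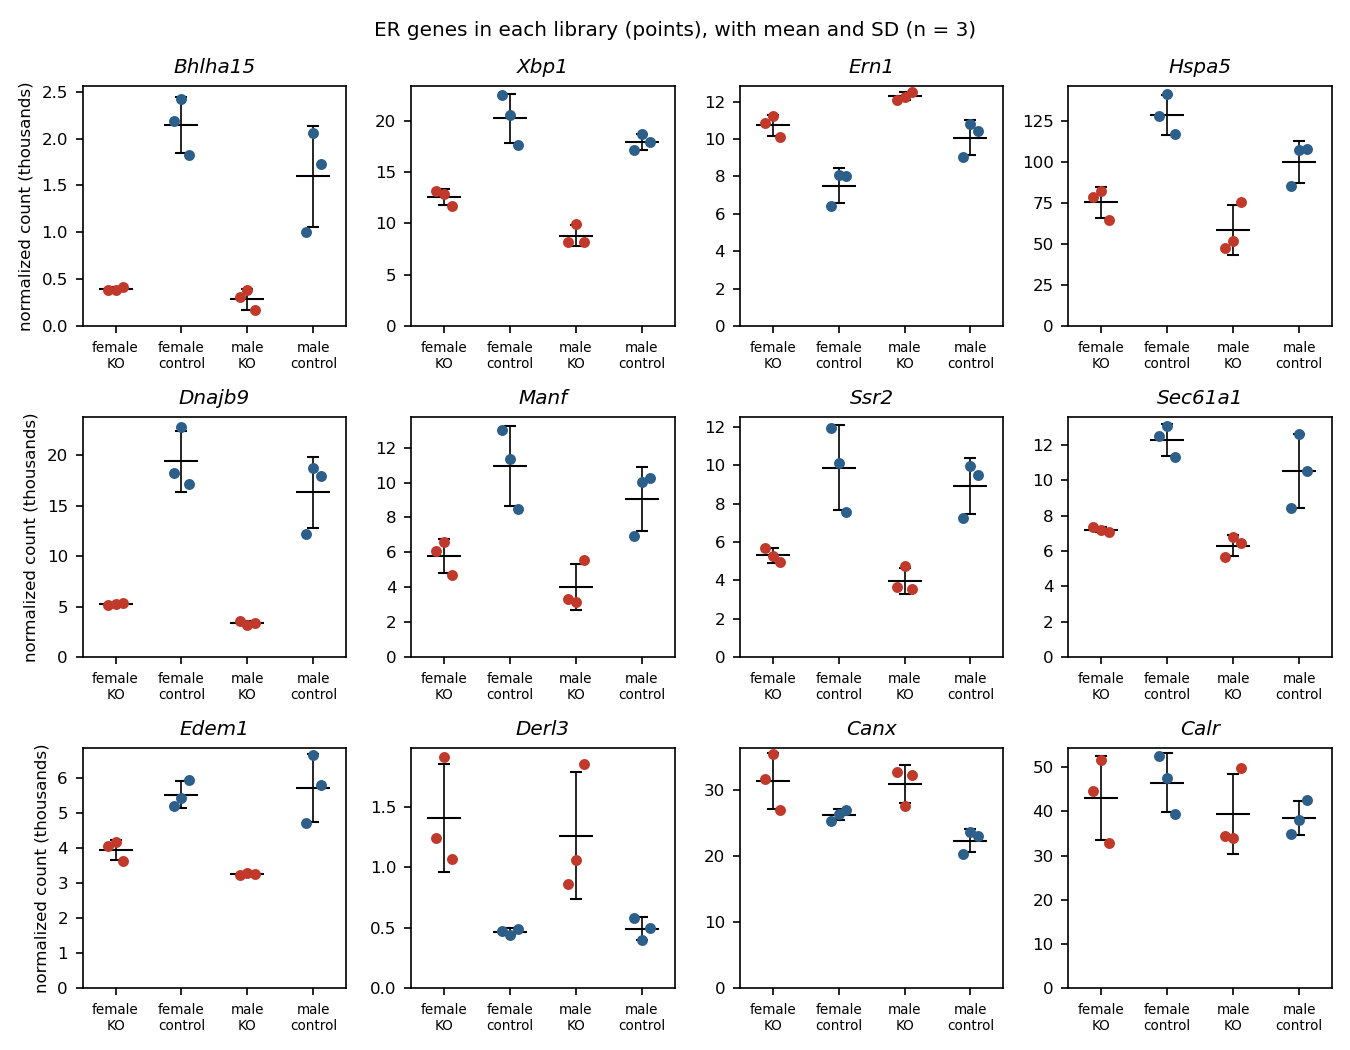
Normalized counts, divided by 1000, of 12 members in each library, with group means and standard deviations. Knockout and control libraries do not overlap in either sex for Bhlha15, Xbp1, Ern1, Hspa5, Dnajb9, Manf, Ssr2, Sec61a1, Edem1 and Derl3. They overlap in both sexes for Calr and in females for Canx. The share of all tested genes whose groups do not overlap was not counted.

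Among the folding genes, Dnajb9 fell the most. It lies at chr12:44252342-44257109 on GRCm39 and encodes ERdj4, a J-domain cofactor that directs BiP toward misfolded chains and restrains IRE1. Levels of Dnajb9 were 5202, 5287 and 5335 in female knockouts 1 to 3, against 18226, 22803 and 17119 in female controls 1 to 3. The male values for Dnajb9 were 3548, 3179 and 3357 in male knockouts 1 to 3, against 12243, 18763 and 17956 in male controls 1 to 3. The knockout libraries of each sex lay close together and far below the controls, 3.65-fold lower in females (log2 fold change -1.87 ± 0.12 SE, limma adjusted p = 2.05e-04) and 4.78-fold lower in males (log2 fold change -2.26 ± 0.17 SE, limma adjusted p = 4.04e-04). In fold change, 157 of the genes tested in females and 174 of those tested in males had a lower fold change.

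Hspa5, at chr2:34661982-34667559 on GRCm39, encodes BiP, the central Hsp70 chaperone of the ER lumen. It was at 78819, 82782 and 65007 in female knockouts 1 to 3, against 128253, 141615 and 117188 in female controls 1 to 3. In male islets it was at 47706, 51774 and 76040 in male knockouts 1 to 3, against 85495, 107585 and 108103 in male controls 1 to 3. Its groups did not overlap in either sex, and it was 1.71-fold lower in females (log2 fold change -0.78 ± 0.13 SE, limma adjusted p = 0.00488) and 1.74-fold lower in males (log2 fold change -0.80 ± 0.19 SE, limma adjusted p = 0.0266). The male call ended without knockout 1 or 2 or without control 2 or 3, with limma adjusted p-values of 0.0723 to 0.124. Per kilobase of exon, Hspa5 was the highest member, at 17861 in female knockouts, against 30508 normalized counts per kilobase in female controls, where P4hb was next at 17733 and Derl3 was lowest at 236. When libraries were scaled by quantiles in place of size factors, the fold change for Hspa5 was -0.32 (limma adjusted p = 0.293) in females and -0.71 (limma adjusted p = 0.108) in males, neither past the threshold.

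Hsp90b1 encodes GRP94, the Hsp90 of the ER. Hsp90b1 stood at 34064, 41580 and 32056 in female knockouts 1 to 3, against 49613, 54586 and 58607 in female controls 1 to 3. Male values for Hsp90b1 were 37175, 29136 and 64735 in male knockouts 1 to 3, against 39413, 50259 and 44206 in male controls 1 to 3, with knockout 3 the highest of the 6 male libraries. The groups were apart in females and overlapped in males, and Hsp90b1 fell in females (log2 fold change -0.60 ± 0.12 SE, limma adjusted p = 0.0122) but not in males (log2 fold change -0.11 ± 0.26 SE, limma adjusted p = 0.823). With quantile scaling its female fold change was -0.02 (limma adjusted p = 0.924). The difference between the sexes did not pass the test, as given below for all members.

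Manf encodes a small ER protein released under stress that protects beta cells. It was measured at 6093, 6572 and 4703 in female knockouts 1 to 3, against 13005, 11320 and 8469 in female controls 1 to 3. The male libraries held 3313, 3194 and 5543 in male knockouts 1 to 3, against 6966, 10047 and 10232 in male controls 1 to 3. Knockouts lay below controls throughout, 1.88-fold lower in females (log2 fold change -0.91 ± 0.18 SE, limma adjusted p = 0.0124) and 2.30-fold lower in males (log2 fold change -1.20 ± 0.23 SE, limma adjusted p = 0.0114), with a limma adjusted p of 0.0580 without male knockout 1. The annotated span of Manf overlaps Rbm15b on the same strand and Dcaf1 on the other. The counting's strand setting is not given in the sources used here. Rbm15b stood at log2 fold changes of 0.03 in females and 0.15 in males, and Dcaf1 at 0.18 and 0.40.

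Ero1b encodes the oxidase that recharges disulfide isomerases in beta cells. Ero1b had 15308, 29420 and 17574 in female knockouts 1 to 3, against 35002, 36456 and 34602 in female controls 1 to 3. In males Ero1b had 17244, 19479 and 25596 in male knockouts 1 to 3, against 27980, 35542 and 32834 in male controls 1 to 3. Female knockout 2 stood nearest to the controls, but no library crossed between groups, and Ero1b fell 1.77-fold in females (log2 fold change -0.83 ± 0.23 SE, limma adjusted p = 0.0400) and 1.56-fold in males (log2 fold change -0.64 ± 0.17 SE, limma adjusted p = 0.0356). Those calls were fragile, since leaving out any female library except knockout 2 gave a limma adjusted p of 0.0903 to 0.106, and leaving out male knockout 1 or 2 or control 2 or 3 gave 0.0876 to 0.164. With quantile scaling Ero1b stood at -0.52 (limma adjusted p = 0.160) in females and -0.40 (limma adjusted p = 0.216) in males. Its broadly expressed relative Ero1a did not pass the test, with log2 fold changes of -0.16 in females and -0.38 in males.

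Among the other BiP cofactors, 3 fell in females and 1 in males. Hyou1, the exchange factor GRP170, fell in females (log2 fold change -0.79 ± 0.14 SE, limma adjusted p = 0.00660) and stood at -0.56 in males, with a limma adjusted p of 0.101, or 0.0288 without male control 1. Dnajc3, the cofactor known as p58IPK, fell in females (log2 fold change -0.63 ± 0.10 SE, limma adjusted p = 0.00407) and had a limma adjusted p of 0.163 in males, or 0.0369 without male knockout 3. Dnajb11, or ERdj3, fell in females (log2 fold change -0.72 ± 0.16 SE, limma adjusted p = 0.0177), with limma adjusted p-values of 0.0514 to 0.0648 without knockout 3, control 1 or control 2. In males Dnajb11 had a limma adjusted p of 0.0896, or 0.0102 without knockout 3. Sdf2l1, which works with ERdj3, fell in males (log2 fold change -0.89 ± 0.22 SE, limma adjusted p = 0.0280) and had a limma adjusted p of 0.0631 in females, or 0.0462 without female knockout 2. The male call for Sdf2l1 ended without knockout 1 or 2 or control 2 or 3, at 0.0702 to 0.116. Dnajc10, a J-domain protein that reduces disulfides, had log2 fold changes of 0.09 in females and 0.28 in males, neither past the threshold.

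The disulfide isomerases split. Pdia4, or ERp72, fell in females (log2 fold change -0.64 ± 0.13 SE, limma adjusted p = 0.0126), with a limma adjusted p of 0.0528 without control 2. Pdia6, which acts with BiP, fell in females (log2 fold change -0.56 ± 0.16 SE, limma adjusted p = 0.0382), with limma adjusted p-values of 0.0847 to 0.102 without knockout 1, knockout 3, control 1 or control 2, and with quantile scaling it stood at -0.28 (limma adjusted p = 0.172). Neither passed in males, at -0.23 and -0.30. P4hb, the classical isomerase, stood at -0.25 in females and -0.14 in males, or 0.32 and 0.21 with quantile scaling, and Creld2, an isomerase-like stress protein, at -0.52 and -0.36, all short of the threshold.

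The lectin chaperones and their partner isomerase did not fall in either sex. Calr, or calreticulin, stood at -0.13 in females and 0.01 in males, and Pdia3, the isomerase that works with it, at -0.12 and 0.01, none past the threshold, and with quantile scaling the female fold changes of both were positive, at 0.40 for Calr and 0.44 for Pdia3 (limma adjusted p = 0.120 and 0.0323). Canx, or calnexin, was at 31641, 35318 and 26868 in female knockouts 1 to 3, against 25271, 26377 and 26950 in female controls 1 to 3. Male islets held Canx at 32717, 27580 and 32247 in male knockouts 1 to 3, against 20287, 23587 and 22985 in male controls 1 to 3. The groups overlapped in females, where the test was not passed (log2 fold change 0.25 ± 0.11 SE, limma adjusted p = 0.172) except with quantile scaling, at 0.62 (limma adjusted p = 0.00827), and every male knockout lay above every male control (log2 fold change 0.47 ± 0.13 SE, limma adjusted p = 0.0407). The male rise of Canx passed in the fit without knockout 2 but not without any other library, with limma adjusted p-values of 0.0594 to 0.189, nor with edgeR, at an adjusted p of 0.0652.

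In ER-associated degradation, Derl3 was the gene that rose. It lies at chr10:75729247-75731775 on GRCm39 and encodes a derlin, one of the membrane proteins through which misfolded chains leave the ER, and it is induced by XBP1. Derl3 stood at 1245, 1913 and 1068 in female knockouts 1 to 3, against 474, 441 and 494 in female controls 1 to 3. Male levels were 864, 1061 and 1857 in male knockouts 1 to 3, against 584, 397 and 502 in male controls 1 to 3. All knockouts exceeded all controls, 2.90-fold in females (log2 fold change 1.54 ± 0.20 SE, limma adjusted p = 0.00230) and 2.44-fold in males (log2 fold change 1.29 ± 0.28 SE, limma adjusted p = 0.0185), with a limma adjusted p of 0.0558 without male control 2. It was the member with the lowest level per kilobase in female controls. The relatives Derl1 and Derl2 differed from it. Derl1 was at 6756, 6850 and 6200 in female knockouts 1 to 3, against 9184, 8315 and 7604 in female controls 1 to 3. The male values of Derl1 were 5687, 5969 and 6476 in male knockouts 1 to 3, against 8239, 9295 and 9837 in male controls 1 to 3. Derl1 thus lay lower in all knockouts of each sex, in females (log2 fold change -0.34 ± 0.10 SE, limma adjusted p = 0.0461) and in males (log2 fold change -0.59 ± 0.12 SE, limma adjusted p = 0.0131). Its limma adjusted p was 0.0789 to 0.139 without any 1 female library except control 3, and 0.0817 and 0.0538 without male knockout 1 and control 3. The female call for Derl1 also ended with edgeR, at an adjusted p of 0.05002. It ended too with quantile scaling, upper-quartile scaling, no filter and the acinar covariate, at limma adjusted p-values of 0.0521 to 0.220. Derl2 had fold changes of -0.15 in females and 0.00 in males, neither past the threshold.

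The EDEM proteins trim mannose from misfolded glycoproteins and mark them for disposal. Edem1 was at 4040, 4157 and 3631 in female knockouts 1 to 3, against 5193, 5427 and 5935 in female controls 1 to 3. In males Edem1 was at 3234, 3277 and 3261 in male knockouts 1 to 3, against 4710, 6634 and 5781 in male controls 1 to 3. The groups stayed apart and Edem1 fell in both sexes, in females (log2 fold change -0.48 ± 0.10 SE, limma adjusted p = 0.0107) and in males (log2 fold change -0.80 ± 0.14 SE, limma adjusted p = 0.00735), also without any 1 library. With the acinar covariate the female value for Edem1 was -0.47 (limma adjusted p = 0.0758). Edem2 had 3423, 3670 and 3137 in female knockouts 1 to 3, against 4992, 4496 and 4411 in female controls 1 to 3. In males Edem2 had 2877, 3061 and 3529 in male knockouts 1 to 3, against 4695, 5305 and 6285 in male controls 1 to 3. It fell likewise, in females (log2 fold change -0.44 ± 0.10 SE, limma adjusted p = 0.0163) and in males (log2 fold change -0.78 ± 0.14 SE, limma adjusted p = 0.00878), with limma adjusted p-values of 0.0518 to 0.0587 without female knockout 1, knockout 3 or control 2 and 0.0546 without male knockout 1. Edem3 had 2955, 3161 and 3332 in female knockouts 1 to 3, against 3939, 5543 and 6118 in female controls 1 to 3. Male Edem3 values were 3904, 3155 and 3527 in male knockouts 1 to 3, against 3618, 7534 and 4543 in male controls 1 to 3, where control 2 stood far above the rest and control 1 lay within the knockout range. Edem3 fell in females (log2 fold change -0.70 ± 0.16 SE, limma adjusted p = 0.0182) but had a limma adjusted p of 0.207 in males, and the female value was 0.0624 to 0.0671 without knockout 1, knockout 2 or control 2. With the acinar covariate the female values were -0.38 (limma adjusted p = 0.128) for Edem2 and -0.83 (limma adjusted p = 0.0501) for Edem3.

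Sel1l and Syvn1 form the central ubiquitin ligase complex of this pathway, with SEL1L as the adaptor and SYVN1, or HRD1, as the ligase. Sel1l was at 8148, 9243 and 7686 in female knockouts 1 to 3, against 6264, 7231 and 7418 in female controls 1 to 3. Its male values were 7859, 7045 and 9229 in male knockouts 1 to 3, against 7407, 7800 and 9092 in male controls 1 to 3. All female knockouts lay above all female controls without passing the test (log2 fold change 0.26 ± 0.11 SE, limma adjusted p = 0.131), which was passed with quantile scaling at 0.35 (limma adjusted p = 0.0386), and the male groups overlapped (log2 fold change -0.01 ± 0.14 SE, limma adjusted p = 0.963). Syvn1 was at 3211, 3195 and 2855 in female knockouts 1 to 3, against 4517, 4813 and 3530 in female controls 1 to 3. Male Syvn1 was at 2392, 3245 and 2692 in male knockouts 1 to 3, against 3295, 4026 and 4169 in male controls 1 to 3. Knockouts lay below controls in both sexes, and the fall passed in females (log2 fold change -0.46 ± 0.13 SE, limma adjusted p = 0.0378) but not in males (log2 fold change -0.47 ± 0.15 SE, limma adjusted p = 0.0759). The female adjusted p for Syvn1 from limma was 0.0794 to 0.132 without any 1 library except control 3, and the male one was 0.0413 without knockout 2. Herpud1, a scaffold of the complex, fell in males (log2 fold change -0.68 ± 0.18 SE, limma adjusted p = 0.0360) and stood at -0.18 in females, with male limma adjusted p-values of 0.0631 to 0.158 without knockout 1 or 3 or control 2 or 3. Os9, a lectin that delivers clients to the complex, stood at 0.16 and 0.01, neither past the threshold.

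Both SEC61 channel genes among the 38 fell, as did Sec61g, a further channel subunit from the wider translocation list, in females (log2 fold change -0.81 ± 0.20 SE, limma adjusted p = 0.0266) and in males (log2 fold change -0.96 ± 0.14 SE, limma adjusted p = 0.00415). Sec61a1 encodes the pore. Its levels in females were 7331, 7199 and 7088 in female knockouts 1 to 3, against 12477, 13075 and 11304 in female controls 1 to 3. Its levels in males were 5671, 6776 and 6467 in male knockouts 1 to 3, against 8410, 12626 and 10510 in male controls 1 to 3. The groups were apart, 1.70-fold lower in females (log2 fold change -0.77 ± 0.09 SE, limma adjusted p = 0.00138) and 1.65-fold lower in males (log2 fold change -0.72 ± 0.16 SE, limma adjusted p = 0.0188), with limma adjusted p-values of 0.0942 and 0.0545 without male knockout 1 and control 3. Sec61b encodes a small subunit of the channel. It was at 3146, 3470 and 3045 in female knockouts 1 to 3, against 6605, 4440 and 4042 in female controls 1 to 3. In male libraries it was at 2347, 2015 and 2523 in male knockouts 1 to 3, against 3637, 5672 and 4985 in male controls 1 to 3. Again no libraries crossed, and Sec61b fell in both sexes, in females (log2 fold change -0.61 ± 0.18 SE, limma adjusted p = 0.0447) and in males (log2 fold change -1.04 ± 0.18 SE, limma adjusted p = 0.00650), with female limma adjusted p-values of 0.0719 to 0.116 without any 1 knockout library or control 2.

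The TRAP complex, encoded by Ssr1 to Ssr4, sits beside the channel and helps proinsulin and other clients across. Ssr1 was at 10550, 11273 and 10157 in female knockouts 1 to 3, against 14800, 15852 and 14738 in female controls 1 to 3. Male Ssr1 stood at 8875, 7500 and 9786 in male knockouts 1 to 3, against 10018, 13482 and 12405 in male controls 1 to 3. The groups did not overlap, and Ssr1 fell in females (log2 fold change -0.51 ± 0.09 SE, limma adjusted p = 0.00621) but not in males (log2 fold change -0.45 ± 0.15 SE, limma adjusted p = 0.0838), where without control 1 its limma adjusted p was 0.0456. Ssr2 had 5701, 5267 and 4937 in female knockouts 1 to 3, against 11943, 10103 and 7570 in female controls 1 to 3. The male count of Ssr2 was 3649, 4727 and 3544 in male knockouts 1 to 3, against 7235, 9975 and 9488 in male controls 1 to 3. It fell the most of the 4, 1.83-fold in females (log2 fold change -0.87 ± 0.16 SE, limma adjusted p = 0.00813) and 2.24-fold in males (log2 fold change -1.16 ± 0.16 SE, limma adjusted p = 0.00338), also without any 1 library.

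Ssr3 stood at 10155, 11599 and 9871 in female knockouts 1 to 3, against 15955, 18362 and 16200 in female controls 1 to 3. In males Ssr3 stood at 7735, 6545 and 10779 in male knockouts 1 to 3, against 11399, 15336 and 14523 in male controls 1 to 3. It fell in both sexes, in females (log2 fold change -0.68 ± 0.10 SE, limma adjusted p = 0.00392) and in males (log2 fold change -0.74 ± 0.19 SE, limma adjusted p = 0.0357), but the male adjusted p from limma was 0.0925 to 0.136 without knockout 1 or 2 or control 2 or 3. Ssr4 was at 5210, 5587 and 5192 in female knockouts 1 to 3, against 9258, 6821 and 6665 in female controls 1 to 3. The Ssr4 values of males were 3640, 3894 and 3403 in male knockouts 1 to 3, against 7047, 6656 and 8199 in male controls 1 to 3. Knockouts again lay below controls, in females (log2 fold change -0.49 ± 0.13 SE, limma adjusted p = 0.0346) and in males (log2 fold change -1.0 ± 0.12 SE, limma adjusted p = 0.00212), and the female adjusted p from limma was 0.0576 to 0.0980 without any 1 knockout library or control 2.

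In both sexes 14 members fell, which was 60.9% of those that fell in females and 87.5% of those that fell in males. Over all tested genes, 1949 fell in females and 1277 in males, and 834 of the 17330 tested in both fell in both. The 14 members were Hspa5, Dnajb9, Manf and Ero1b among the folding genes, Edem1, Edem2 and Derl1 in degradation, Sec61a1, Sec61b, Ssr2, Ssr3 and Ssr4 at the translocon, and the regulators Xbp1 and Bhlha15. Of these, only Dnajb9, Ssr2, Xbp1 and Bhlha15 passed in both sexes without any 1 library and in every other setting. Across the 38 members the fold changes of the sexes had a Pearson correlation of 0.92 and a Spearman correlation of 0.80, given as a description, since genes are not independent replicates. No such correlation over all tested genes is set beside them here. When the male effect minus the female effect was tested over the 12 libraries, 0 of 38 members passed with limma and 0 with edgeR, against 0.110% of all 17330 tested genes, and 3 members had an unadjusted limma p below 0.05. These 3 were Ssr4 at a difference of -0.51 (limma adjusted p = 0.488), Herpud1 at -0.50 (limma adjusted p = 0.596) and Xbp1 at -0.35 (limma adjusted p = 0.606), each more negative in males. A member that passed in 1 sex alone is therefore not shown to differ between the sexes.

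A wider set of 163 genes of the same pathways, of which 159 could be tested, gave 49 that fell and 10 that rose in females, and 39 that fell and 4 that rose in males, with medians of -0.15 and -0.21. Over all tested genes, 10.7% fell and 9.90% rose in females, and 7.09% fell and 6.08% rose in males. Of the 159, 33 fell and 4 rose in both sexes, beside 834 of the 17330 genes tested in both that fell in both. The 4 that rose were Emc1, Ube2g1, Mbtps1 and Yy1. Emc1 stood at log2 fold changes of 0.79 in females and 0.86 in males, and Ube2g1 at 0.74 and 0.97. The list of sugar transfer, sugar trimming and KDEL receptor genes was lower most often, with 12 of 23 that fell in each sex and none that rose. It included Kdelr2, a receptor that returns ER proteins from the Golgi, in females (log2 fold change -1.12 ± 0.13 SE, limma adjusted p = 0.00120) and in males (log2 fold change -1.43 ± 0.13 SE, limma adjusted p = 7.91e-04). It also included Mogs, the glucosidase that makes the first cut in the attached sugar, in females (log2 fold change -1.04 ± 0.11 SE, limma adjusted p = 0.00106) and in males (log2 fold change -1.15 ± 0.15 SE, limma adjusted p = 0.00290). Krtcap2, a subunit of the oligosaccharyltransferase, fell as well, in females (log2 fold change -0.59 ± 0.15 SE, limma adjusted p = 0.0251) and in males (log2 fold change -1.40 ± 0.15 SE, limma adjusted p = 0.00139). Of 35 further folding genes 13 fell and 1 rose in females, and 9 fell in males. Pdia5, a disulfide isomerase, led these, in females (log2 fold change -1.09 ± 0.14 SE, limma adjusted p = 0.00176) and in males (log2 fold change -1.55 ± 0.16 SE, limma adjusted p = 0.00152), followed by Erp29, a related chaperone without isomerase activity, in females (log2 fold change -1.05 ± 0.17 SE, limma adjusted p = 0.00499) and in males (log2 fold change -1.32 ± 0.16 SE, limma adjusted p = 0.00204).

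Of 38 tested genes of the wider translocation list, 13 fell and 2 rose in females, and 9 fell and 1 rose in males. Spcs3, a subunit of the signal peptidase, fell in females (log2 fold change -1.36 ± 0.09 SE, limma adjusted p = 2.20e-04) and in males (log2 fold change -1.45 ± 0.16 SE, limma adjusted p = 0.00177), as did the peptidase subunit Sec11c, in females (log2 fold change -0.48 ± 0.12 SE, limma adjusted p = 0.0246) and in males (log2 fold change -1.17 ± 0.14 SE, limma adjusted p = 0.00205). Srp54a of the signal recognition particle fell in females (log2 fold change -0.87 ± 0.24 SE, limma adjusted p = 0.0359). Srp54a has near-identical copies in the mouse genome, so its reads may be split among them. Of 40 further degradation genes, 6 fell and 3 rose in females, and 5 fell and 1 rose in males, with medians of 0.04 and -0.12, beside 10.7% that fell and 9.90% that rose over all genes in females and 7.09% and 6.08% in males. Selenos (log2 fold change -0.96 ± 0.12 SE, limma adjusted p = 0.00210) and Selenok (log2 fold change -1.17 ± 0.13 SE, limma adjusted p = 0.00107), selenoproteins of the ER membrane, fell in females, and again in males at a log2 fold change of -1.45 (limma adjusted p = 0.00110) and a log2 fold change of -1.15 (limma adjusted p = 0.00323). Of 23 further regulators 5 fell and 4 rose in females, and 4 fell and 2 rose in males, with medians of -0.10 and -0.16. Ufm1, a ubiquitin-like modifier, fell in females (log2 fold change -0.78 ± 0.09 SE, limma adjusted p = 0.00126) and in males (log2 fold change -0.72 ± 0.15 SE, limma adjusted p = 0.0155). Creb3, an ER-bound factor, fell in females (log2 fold change -0.56 ± 0.10 SE, limma adjusted p = 0.00592) and in males (log2 fold change -0.93 ± 0.17 SE, limma adjusted p = 0.00966). Nfyb, a subunit of the factor that binds CCAAT, fell in females (log2 fold change -0.65 ± 0.09 SE, limma adjusted p = 0.00219). Mbtps1, the protease that cleaves ATF6, rose in females (log2 fold change 0.40 ± 0.09 SE, limma adjusted p = 0.0207) and in males (log2 fold change 0.56 ± 0.12 SE, limma adjusted p = 0.0165), and so did the transcription factor Yy1, in females (log2 fold change 0.36 ± 0.09 SE, limma adjusted p = 0.0237) and in males (log2 fold change 0.50 ± 0.12 SE, limma adjusted p = 0.0250).

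The 38 members together took 1.46 ± 0.149% of the reads in female knockouts, against 1.75 ± 0.139% in female controls, and 1.29 ± 0.242% in male knockouts, against 1.53 ± 0.212% in male controls (SD, n = 3 each). The cargo genes Ins1 and Ins2 together took 10.6 ± 0.148% in female knockouts, against 13.4 ± 2.41% in female controls, and 12.3 ± 2.58% in male knockouts, against 16.3 ± 2.53% in male controls. Ins1 fell in both sexes, in females (log2 fold change -1.07 ± 0.18 SE, limma adjusted p = 0.00534) and in males (log2 fold change -2.12 ± 0.24 SE, limma adjusted p = 0.00179). Ins2 did not pass the test, in females (log2 fold change -0.37 ± 0.17 SE, limma adjusted p = 0.166) and in males (log2 fold change -0.22 ± 0.23 SE, limma adjusted p = 0.565). Of 12 beta cell markers 9 fell and 1 rose in females, and 7 fell and 1 rose in males, with medians of -1.30 and -1.43, and the part of this in the members' values was not tested.

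Several members, Bhlha15, Xbp1 and Derl3 among them, are also strongly expressed in acinar cells, which adhere to picked islets, and in plasma cells. A list of 33 acinar genes took 1.85, 2.41 and 2.54% of the reads in female knockouts 1 to 3, against 5.70, 2.28 and 5.11% in female controls, and 3.45, 6.01 and 1.24% in male knockouts, against 7.88, 2.76 and 0.528% in male controls. At most 1 of the 33 had no reads in a library. Of the 32 tested acinar genes, 0 passed the limma test in either sex, and 13 had an unadjusted p below 0.05 in females and 0 in males. In females 4 fell with edgeR and 14 with DESeq2, and in males 0 with either tool. Their median log2 fold change was -1.02 in females and 0.17 in males. With the mean log2 level of the tested acinar genes as a covariate, not their read share, 10 members fell and 1 rose in females. In males 18 fell and 2 rose. The 10 were Hspa5, Hyou1, Dnajb9, Dnajc3, Sec61a1, Ssr1, Ssr2, Ssr3, Xbp1 and Bhlha15, and Derl3 rose. The 14 female calls that ended, for Hsp90b1, Dnajb11, Manf, Pdia4, Pdia6, Ero1b, Syvn1, Edem1, Edem2, Edem3, Derl1, Sec61b, Ssr4 and Ern1, had limma adjusted p-values of 0.0501 to 0.270 in that fit. Their fold changes kept their sign, with -0.90 for Manf, -0.59 for Hsp90b1 and -0.43 for Sec61b, beside -0.91, -0.60 and -0.61 without the covariate, and the median of the 38 was -0.49, beside -0.51. The part of acinar reads in the female values was not tested otherwise. The 17 listed plasma and B cell genes summed to 1186 to 12477 normalized counts in female knockouts, against 3241 to 51396 in female controls, and to 679 to 2724 in male knockouts, against 766 to 7227 in male controls. Of the 15 tested, 0 passed with limma or edgeR in either sex, with 0 and 1 at an unadjusted p below 0.05, and 1 fell in females with DESeq2. Their medians were -1.75 in females and -0.34 in males, and their part was not tested. In males 5 of 8 endothelial markers rose, with a median of 0.59, and so did 2 of 10 stellate and 1 of 5 erythrocyte markers, with medians of 0.52 and 1.45. Markers of delta and PP cells fell in 3 of 7 cases in each sex, with medians of -0.52 in females and -0.62 in males. The part of these cells was not tested either.

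**Figure D4:**
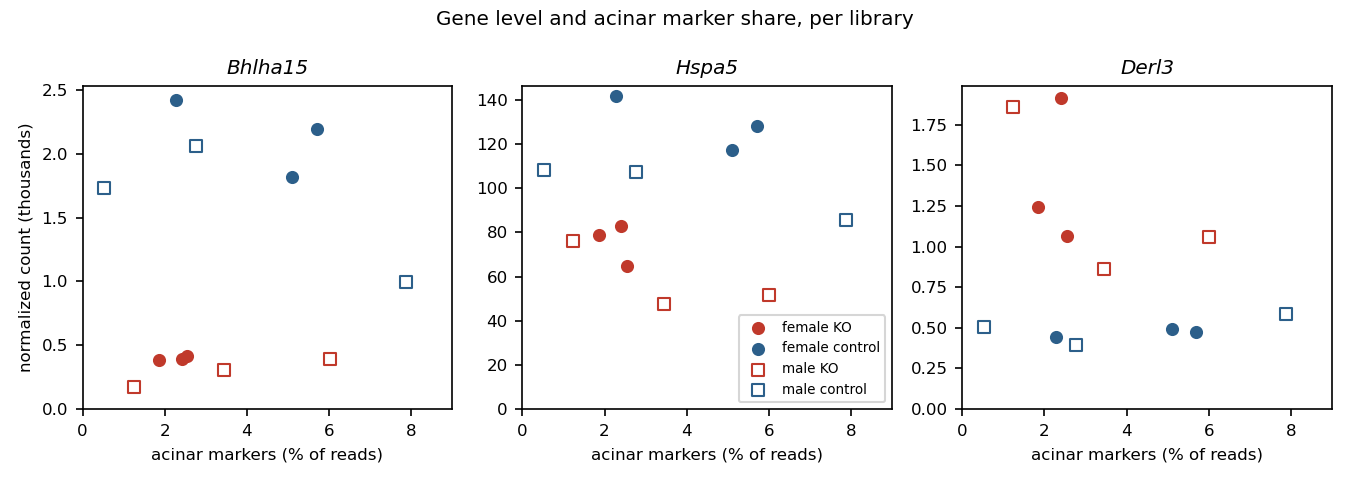
Normalized counts, divided by 1000, of Bhlha15, Hspa5 and Derl3 in each library against the share of its reads, in percent, that came from the acinar marker list. The sexes were scaled apart, so levels compare within a sex only. In female knockouts Bhlha15 was at 386 to 418 normalized counts over acinar shares of 1.85 to 2.54%. Female controls were at 1820 to 2419 over 2.28 to 5.70%. Male knockouts were at 170 to 391 over 1.24 to 6.01%, and male controls at 1000 to 2058 over 0.528 to 7.88%.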

How the data were processed

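Bulk RNA of hand-picked islets was sequenced in 12 libraries, grouped by the labels. The submitters' processing notes name FastQC 0.11.9 for quality checks, Trim Galore 0.6.7 for trimming, STAR 2.7.3a for alignment to GRCm39, and featureCounts, without a version, for gene counts. The strand setting and annotation release are not given in the sources used here. In each of the 2 deposited tables, 1 per sex, the signal values are DESeq2 normalized counts, and 100.0% of them gave whole reads within a tolerance of 0.001. The log2 fold changes and the p-values deposited by the authors came from DESeq2, per the file headers.

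The deposited values were tested per sex with limma 3.58.1 in R 4.3.3 (trend and robust variance, pseudocount 1, genes with a mean of at least 10), with Benjamini-Hochberg adjustment over all genes tested; the design foresaw this for normalized values. Repeated entries of a gene were removed, 79 from the female and 73 from the male table. The sex difference was an interaction term over the 12 libraries. Alternatives were edgeR 4.0.16 and DESeq2 1.42.0 on the recovered reads, other scalings, pseudocounts and filters, an acinar covariate, a replicate block and each library left out. The fit was tested on simulated data. Promoter motifs were searched in RefSeq windows of GRCm38.p6, a build other than that of the files, and matched by symbol, while exon lengths came from GENCODE M21. Depth bounds counting error only, not the spread between libraries.

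The members were listed by name, and the wider lists were written from general knowledge, not from how genes moved here. Earlier results of these data on some of these genes were known then. In the text, per-library values are given for 12 listed members, for every member that passed in both sexes and for the 2 that changed most per role and sex. Those of Canx are given in addition to these rules. Canx passed in males alone and was not among the 2 folding genes that changed most in either sex. Of each wider list, the 2 genes that changed most in a sex at a mean of at least 100 are named. Sec61g, Emc1, Ube2g1, Mbtps1 and Yy1 were named after their values were seen.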

Additional observations from a re-analysis of the deposited data

How the results depend on the processing

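Most member values kept their direction and their side of the threshold, 561 of 646 in females and 573 of 646 in males over the alternatives. These values include members that had not passed. Of the 25 members that changed in females, 14 passed without any 1 library, and 10 of these also passed in every other setting. Of the 18 that changed in males, 7 passed in all of these fits. With the acinar level as a covariate, 11 members changed in females, of which 10 fell and 1 rose. In that fit the members' median was -0.49 beside -0.51, and 1941 tested genes were called in place of 3745. With all 12 libraries in 1 fit, 2408 tested genes were called in females, and 4396 in place of 2372 in males, and 16 members fell in females and 20 in males. With quantile scaling, 5 members rose in females, with Canx, Sel1l and Pdia3 beside Ern1 and Derl3, and the sex difference called 38 tested genes in place of 19. With edgeR, 1 member rose in males. Leaving out 1 library at a time left 15 to 24 members called in females, with 13 to 22 that fell and 1 to 2 that rose, and 1847 to 3760 tested genes called. In males it left 8 to 19 members, with 7 to 18 that fell and 0 to 2 that rose, and 814 to 2298 tested genes. It left 0 to 53 tested genes in the sex difference, while no member was called there in those fits, nor with edgeR, quantile scaling, other pseudocounts or no filter.

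The libraries were treated as unpaired by replicate number. In their deviations from group means, same-numbered libraries had correlations of -0.28 to -0.04 in females and 0.01 to 0.15 in males. Differently numbered knockout and control libraries had correlations of -0.11 to 0.25 in females and -0.16 to 0.08 in males. With so few libraries per group, these values cannot show whether the libraries are paired. With the replicate number as a block, 24 members fell and 2 rose in females (26 in all), 17 fell and 1 rose in males (18 in all), and 0 tested genes differed between the sexes.

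Values that turned sign had not passed the test as reported. With quantile scaling these were, in females, Calr at 0.40, Pdia3 at 0.44 and P4hb at 0.32, and in males Hsp90b1 at 0.24, P4hb at 0.21, Sel1l at 0.015 and Derl2 at -0.0077. Sel1l in males was 0.014 with upper-quartile scaling and 0.0039 with the covariate, and Os9 was -0.011 with edgeR. Without 1 library, the ranges in females were -0.27 to 0.056 for Calr and -0.43 to 0.0093 for Ero1a. In males they were -0.43 to 0.14 for Hsp90b1, -0.17 to 0.11 for Calr, -0.13 to 0.14 for Pdia3, -0.12 to 0.078 for Sel1l, -0.21 to 0.21 for Derl2 and -0.075 to 0.14 for Os9. The cause was not tested. Male control 2 was the shallowest library, and 3 libraries per group limit what any of these tests can resolve.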
